A study of Mus musculus with 6 samples.

Results

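Bone morphogenetic proteins (BMPs) are secreted ligands that bring type I and type II receptor kinases together at the cell surface. The activated type I receptor phosphorylates SMAD1, SMAD5 and SMAD9, which enter the nucleus with SMAD4 and switch on target genes, among them the Id genes. ID proteins carry a helix-loop-helix but no DNA-binding region, and hold E proteins and other basic helix-loop-helix (bHLH) factors away from DNA. In mouse embryonic stem cells BMP4 or serum, acting together with leukaemia inhibitory factor (LIF), is known to sustain self-renewal, in part through Id genes. The 10 genes described here were chosen by name and span this pathway: the ligand gene Bmp4, the type I receptor gene Bmpr1a, the signal transducers Smad1 and Smad5, the inhibitors Smad6 and Bambi, and the targets Id1, Id2, Id3 and Id4. The choice was made with earlier results of these data known. All 10 were measured, each by a single probe set, among 19938 genes tested.

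Total RNA of mouse induced pluripotent stem cells (iPSCs, fibroblasts reprogrammed to pluripotency) had been hybridised to 6 Affymetrix gene arrays, 3 of cells labelled primed and 3 of cells labelled naive. Primed cells were kept in medium conditioned by mouse embryonic fibroblasts with basic FGF at 8 ng/ml, on feeder cells or Matrigel. Naive cells were kept in DMEM with 15% fetal bovine serum, non-essential amino acids, L-Glu, pyruvate, β-mercaptoethanol and LIF at 1000 U/ml. Neither medium is described as holding added BMP. By their titles the primed lines came from adult dermal fibroblasts and the naive lines from embryonic fibroblasts, while another label gives embryonic fibroblasts for all 6, so culture and origin cannot be told apart. The replicates are called biological without saying whether they were separate lines, clones or dishes, and p-values therefore measure only the spread between these samples. The study's stated purpose was to set its lines beside published naive and primed cells, which were not used here.

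Values are log2 expression made by the submitters with RMA (robust multi-array average), in which a difference of 1 is a doubling. All differences are primed minus naive. A gene was taken to have changed at an adjusted p under 0.05, by limma with Benjamini-Hochberg adjustment over all 19938 genes. By that rule 44.5% of all genes were called, 21.8% higher and 22.7% lower in primed cells. Across genes, arrays of the same group correlated at 0.998 to 0.999 and arrays of different groups at 0.980. The pluripotency genes Pou5f1 (11.53 in primed, 12.59 in naive cells) and Sox2 (11.90 in primed, 12.42 in naive cells) were far above background in both groups. Of 7 markers of pluripotent cells, 0 were higher and 5 lower in primed cells, with a median difference of -0.52, and the part of this shift in the values below was not tested. Markers of the states did not follow the labels as a set. Of 9 naive-state markers, 2 were higher and 4 lower in primed cells, and of 8 primed-state markers, 3 were higher and 4 lower. Some differences against the labels were large, as for the naive-state markers Esrrb (2.98) and Nr0b1 (2.29) and the primed-state marker Fgf5 (-1.71). Others went with the labels, as for Dppa3 (naive-state, -2.81) and Car14 (primed-state, 2.11). The naive-state markers Zfp42 and Prdm14 lay in background on every array. The names primed and naive are used here as the labels give them.

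Id1, Id2, Id3 and Bmp4 were 2.04-fold to 6.85-fold lower in primed than in naive cells, while the inhibitors Smad6 and Bambi and the transducer Smad1 were higher in primed cells. Of the 10 genes, 3 were higher and 5 lower in primed cells and 2 did not pass, against the 44.5% of all genes called. Primed and naive values were fully separate for 8 of the 10 (groups not overlapping), against 52.9% of all genes. The median size of the difference was 0.61 over the 10 genes and 0.14 over all genes. None of the 10 lay in the background, a cutoff of 6.96 to 7.02 below which 95% of olfactory and vomeronasal receptor genes fell on each array. The shares over all genes count dim genes too and are not matched for level. Without genes under the 40th percentile of mean expression, 3797 were higher and 4070 lower. Over all genes the counts were 4347 and 4529. The share called was therefore larger among brighter genes, and all 10 genes were among those kept. Since each array measured a culture in bulk, fewer cells expressing a gene and less RNA per cell cannot be told apart.

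**Figure D1:**
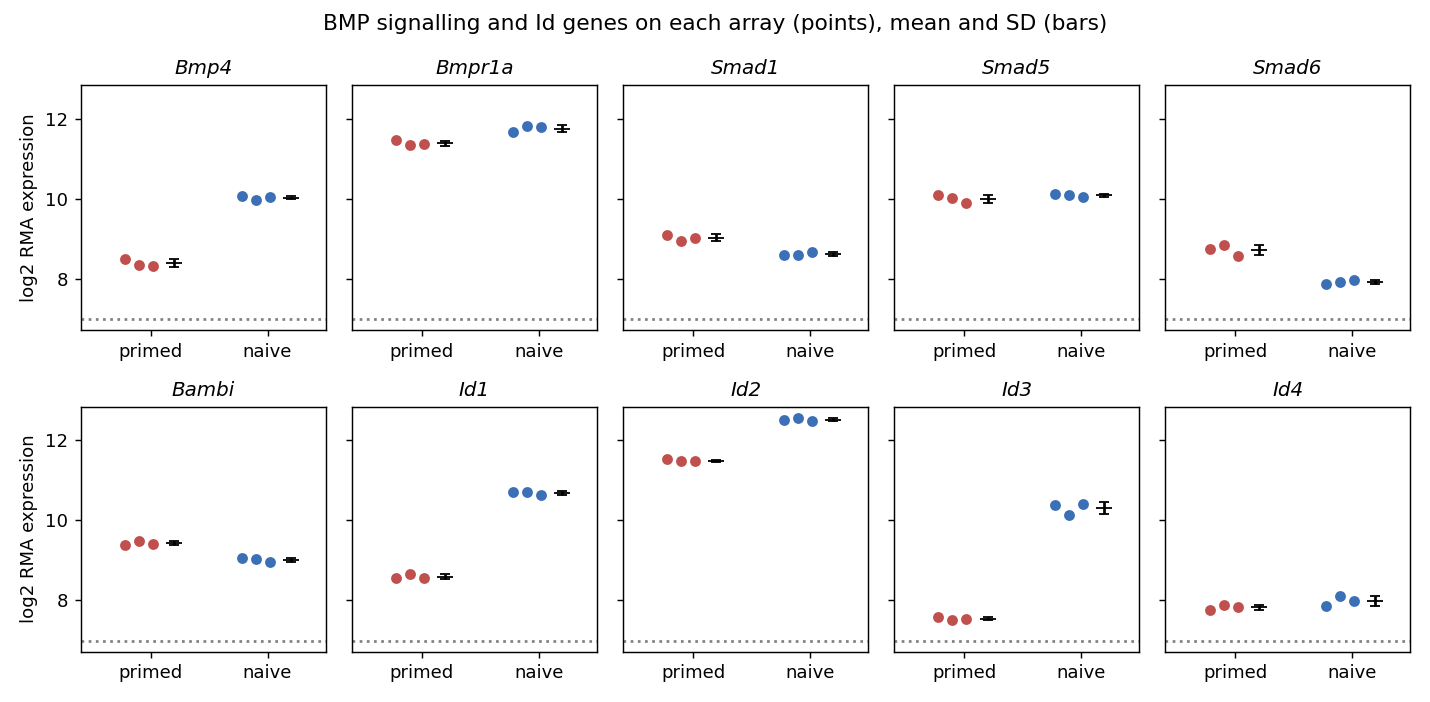
Log2 RMA expression (vertical axis) of each of the 10 genes on the 3 primed and the 3 naive arrays. Points are arrays, bars to their right give the mean and SD, and the dotted line is the mean background cutoff; Id1, Id2, Id3 and Bmp4 sit lower on every primed array than on any naive array, and Smad1, Smad6 and Bambi sit higher.

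Bmp4 encodes the ligand of the pathway best known for its action in mouse embryonic stem cells. It was at 8.50, 8.33 and 8.32 on the primed arrays, against 10.06, 9.98 and 10.04 on the naive arrays. Every primed value lay more than 1 log2 unit under every naive value. The difference was -1.64 (SE 0.06, 95% interval -1.77 to -1.51, limma adjusted p = 3.36e-09), a level 3.12-fold lower in primed cells. Of all genes tested, 99.0% differed less.

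Bmpr1a encodes a type I receptor that binds BMP2 and BMP4. Its values were 11.46, 11.34 and 11.36 on the primed arrays, against 11.66, 11.81 and 11.79 on the naive arrays. The groups stood close together but did not overlap. The difference was -0.36 (SE 0.06, 95% interval -0.50 to -0.23, limma adjusted p = 0.000385), or 1.29-fold lower in primed cells. The measured change in the receptor gene was smaller than that in its ligand gene. The intervals of the 2 differences, which hold only the spread between arrays, lie apart.

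The transducers behaved differently from each other. Smad1 was at 9.10, 8.94 and 9.03 on the primed arrays, against 8.59, 8.58 and 8.66 on the naive arrays. All primed values were above all naive values, with a difference of 0.41 (SE 0.06, 95% interval 0.28 to 0.54, limma adjusted p = 0.00013), a 1.33-fold rise in primed cells. Smad5, whose product carries the same signal as SMAD1, was at 10.08, 10.01 and 9.89 on the primed arrays and at 10.11, 10.10 and 10.05 on the naive arrays. The groups overlapped. The difference for Smad5 was -0.09 (95% interval -0.22 to 0.04, limma adjusted p = 0.25), and it passed the threshold only after each array was centred on its median (-0.16, adjusted p = 0.0352). The intervals of Smad1 and Smad5, which hold only the spread between arrays, did not meet.

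SMAD6 is an inhibitory SMAD that blocks signalling inside the cell, and its gene is itself a known target of BMP signalling. Smad6 was at 8.75, 8.83 and 8.57 on the primed arrays, against 7.88, 7.92 and 7.96 on the naive arrays, the latter not far above background. Every primed value was above every naive value. The difference was 0.80 (SE 0.07, 95% interval 0.65 to 0.95, limma adjusted p = 2.42e-06), or 1.74-fold higher in primed cells, and 94.1% of all genes differed less.

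Bambi encodes a pseudoreceptor, a membrane protein that resembles a type I receptor without its kinase and dampens signalling. It was at 9.39, 9.49 and 9.40 on the primed arrays, against 9.05, 9.03 and 8.96 on the naive arrays. The groups did not overlap. The difference was 0.41 (SE 0.05, 95% interval 0.29 to 0.53, limma adjusted p = 6.9e-05), a 1.33-fold rise in primed cells. Both inhibitors among the 10 genes thus rose where the ligand, the receptor and 3 of the 4 Id genes fell.

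**Figure D2:**
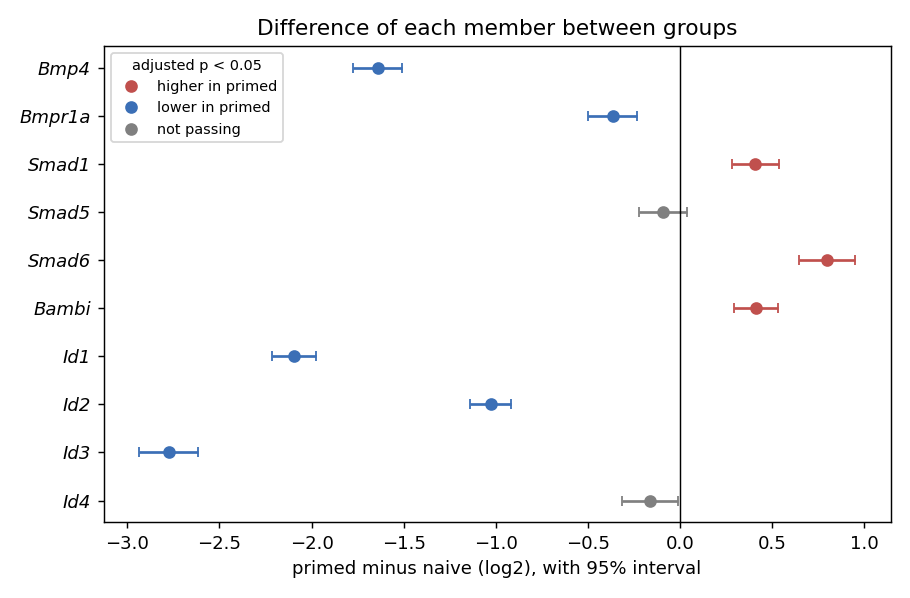
Difference of each of the 10 genes, primed minus naive on the log2 scale (horizontal axis), with its 95% interval from limma. Smad1, Smad6 and Bambi lie to the right of 0, Bmp4, Bmpr1a, Id1, Id2 and Id3 to the left, and Smad5 and Id4 did not pass the threshold.

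Among the Id genes the differences were of unequal size. Id3 had the largest difference of the 10 genes and rank 38 by size among all genes tested. It was at 7.58, 7.51 and 7.52 on the primed arrays, against 10.38, 10.14 and 10.42 on the naive arrays. The primed values were tightly grouped a little above the background cutoff, and the naive values were all more than 2 log2 units higher. The difference was -2.78 (SE 0.07, 95% interval -2.93 to -2.62, limma adjusted p = 2.72e-10), or 6.85-fold lower in primed cells.

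Id1, the Id gene most often used as a readout of BMP signalling, was at 8.56, 8.66 and 8.56 on the primed arrays, against 10.71, 10.72 and 10.63 on the naive arrays. Its groups were again far apart relative to their spread. The difference was -2.10 (SE 0.05, 95% interval -2.22 to -1.97, limma adjusted p = 2.8e-10), or 4.27-fold lower in primed cells, at rank 89 by size among all genes.

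Id2 stayed far above background in both groups. It was at 11.52, 11.47 and 11.48 on the primed arrays, against 12.51, 12.56 and 12.49 on the naive arrays. The difference was -1.03 (SE 0.05, 95% interval -1.14 to -0.91, limma adjusted p = 3.07e-08), a level 2.04-fold lower in primed cells, and 96.7% of all genes differed less.

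Id4 lay closer to background on all arrays, at 7.76, 7.88 and 7.83 in primed cells and at 7.86, 8.12 and 7.98 in naive cells. The groups overlapped, since primed replicate 2 was above naive replicate 1. The difference was -0.16 (SE 0.07, 95% interval -0.31 to -0.01, limma adjusted p = 0.0844) and did not pass. Without naive replicate 1 the difference was -0.22 and passed (limma adjusted p = 0.0216). It also passed after quantile normalization (-0.21, adjusted p = 0.0379), after median centring (-0.23, adjusted p = 0.0226) and when genes under the 40th percentile of mean expression were left out (adjusted p = 0.0487). The intervals of the 4 Id differences did not meet, with the order Id3, Id1, Id2, Id4 by size of the measured difference. The intervals hold only the spread between arrays, not any difference in how the probe sets of different genes respond. Id4 also lay close to background, where RMA compresses differences.

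Sequences just upstream of Id2 and Id3, which fell, and of Id4, which did not pass, are shown so that the 3 can be set side by side. They come from RefSeq (build GRCm38.p6), where 8 of the 10 genes had a window of 300 bases around an annotated start, and Id1 and Bambi had none in the table used. The 250 bases before the start are given for Id2 (chr12:25096093-25096342, minus strand), Id3 (chr4:136143572-136143821, plus strand) and Id4 (chr13:48260866-48261115, plus strand). Capitals mark GGCGCC, a GC-rich element that SMAD1 and SMAD5 are known to bind.
Id2: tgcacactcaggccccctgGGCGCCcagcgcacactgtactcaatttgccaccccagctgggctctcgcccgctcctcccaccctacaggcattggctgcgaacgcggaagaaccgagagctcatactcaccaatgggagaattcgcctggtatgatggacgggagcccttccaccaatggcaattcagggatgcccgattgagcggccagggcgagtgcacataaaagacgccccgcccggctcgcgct
Id3: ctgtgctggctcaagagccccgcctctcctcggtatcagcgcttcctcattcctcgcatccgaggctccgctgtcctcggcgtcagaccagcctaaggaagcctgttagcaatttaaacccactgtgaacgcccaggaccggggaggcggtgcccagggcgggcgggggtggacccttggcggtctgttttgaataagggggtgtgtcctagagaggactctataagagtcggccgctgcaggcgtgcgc
Id4: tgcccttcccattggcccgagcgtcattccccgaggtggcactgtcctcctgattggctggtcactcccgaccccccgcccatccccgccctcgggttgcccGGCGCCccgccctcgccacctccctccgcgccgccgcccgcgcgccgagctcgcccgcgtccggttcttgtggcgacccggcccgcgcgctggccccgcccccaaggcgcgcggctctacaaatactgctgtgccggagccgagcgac
GGCGCC begins 231 bases before the start of Id2 and 148 bases before that of Id4, and is not in the Id3 window. GC makes up 62.8% of the Id2 and Id3 stretches and 75.6% of the Id4 stretch. Over both strands GGCGCC is in 5 of the 10 windows of the 8 genes (those of Id2, Id4 and Bmpr1a and 2 of the 3 of Smad5), and in 11.9% of all 32851 windows in the table. Of these 4 genes, 2 fell in primed cells (Id2 and Bmpr1a) and 2 did not pass. Whether the 2 Smad5 windows with a match overlap and hold the same site was not tested. The share over all windows is not matched for GC content, and GGCGCC is made of G and C only. No enrichment can therefore be read from these shares.

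The longer bipartite BMP response element was searched on both strands as GGCGNC or GACGNC, followed after any 5 bases by GTCT. It was in 0 of the 10 windows, and in 0.244% (GGCGNC form) and 0.11% (GACGNC form) of all windows. With an element this rare, 10 windows without a match say little. Sequence outside the windows was not searched, so no absence from these genes can be read from this. Smad6 is shown with the 30 bases around GTCTAGAC (chr9:64022045-64022074, minus strand), a palindrome that SMAD proteins are known to bind, which holds the GTCT of the bipartite element on each strand. It was looked for after the sequence had been seen.
Smad6: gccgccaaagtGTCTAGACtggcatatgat
The palindrome, in capitals, straddles the start that this window is built on, while the Smad6 gene as annotated begins further upstream. It is in 1 of the 10 windows and in 0.213% of all windows. A match is a description of the letters and does not show binding.

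The wider pathway was read from lists by role, on the same fit. Outside the 10 genes, 71 further genes of these lists were measured, of which 18 were higher and 18 lower in primed cells and 35 did not pass. Their median difference was 0.00, as over all genes (0.00), and their median size 0.17. Counts in these lists and in the marker lists below stand against 21.8% higher and 22.7% lower over all genes, of any level.

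Among BMP ligand genes 2 of 15 were higher and 4 lower in primed cells, with a median difference of 0.00. Bmp2, the closest relative of Bmp4, was at 6.55, 6.56 and 6.44 on the primed arrays, in background, against 7.53, 7.43 and 7.44 on the naive arrays (limma adjusted p = 1.26e-07). Taking the background cutoff as its primed level, Bmp2 was at least 1.39-fold lower in primed cells. Bmp8b (-0.90) and Bmp8a (-0.38), a neighbouring pair of ligand genes, were also lower in primed cells. Bmp7 went the other way, at 10.90, 10.80 and 10.95 on the primed arrays, against 10.52, 10.56 and 10.54 on the naive arrays (0.34, adjusted p = 0.00036), and Bmp6 rose by 0.31. In this list 5 of 15 genes lay in background on all arrays.

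Of 12 receptor and co-receptor genes, 4 were higher and 5 lower in primed cells, with a median difference of 0.01. Eng, the co-receptor endoglin, was at 7.45, 7.34 and 7.17 on the primed arrays, against 8.84, 8.65 and 8.94 on the naive arrays (-1.49, adjusted p = 9.61e-08). Tgfbr3, the co-receptor betaglycan, was lower in primed cells too (-0.80). Rgma, a co-receptor that enhances BMP signalling, was higher (0.73), as were the type II receptor gene Acvr2b (0.37) and the type I receptor gene Acvr1 (0.27). The type II receptor gene Bmpr2 was lower by a small margin (-0.21, adjusted p = 0.0427), and Bmpr1b was in background in both groups. The 5 genes lower in primed cells became 3 without primed replicate 3, and 3 without naive replicate 3.

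In the list of SMADs and their regulators 5 of 15 genes were higher and 2 lower in primed cells, with a median difference of 0.07. Besides Smad6 and Smad1, the genes that rose were Zeb2, which encodes a SMAD-binding repressor (0.56), the SMAD phosphatase gene Ctdsp2 (0.44) and Smad4, for the shared partner of all receptor SMADs (0.22). Smad7, the other inhibitory SMAD gene, moved against Smad6. It was at 9.53, 9.48 and 9.42 on the primed arrays, against 10.06, 10.12 and 10.11 on the naive arrays (-0.62, adjusted p = 2.19e-06). Smad9, the remaining BMP transducer gene, did not pass (0.07, adjusted p = 0.275). Centring each array on its median raised the count of lower genes in this list to 5.

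Genes for extracellular BMP antagonists were split, with 5 of 15 higher and 4 lower in primed cells and a median difference of -0.04. Fst, for follistatin, which binds activin and BMPs, was at 10.62, 10.46 and 10.74 on the primed arrays, against 11.60, 11.78 and 11.68 on the naive arrays (-1.08, adjusted p = 4.8e-07). Nbl1 (-0.82) and Fstl3 (-0.41) were lower in primed cells as well. Twsg1, which helps chordin hold BMPs, rose by 0.49. Nog, for noggin, did not pass (-0.13, adjusted p = 0.0676), and Cer1 lay in background on all arrays. The 5 genes higher in primed cells became 3 after median centring and 3 without dim genes.

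**Figure D3:**
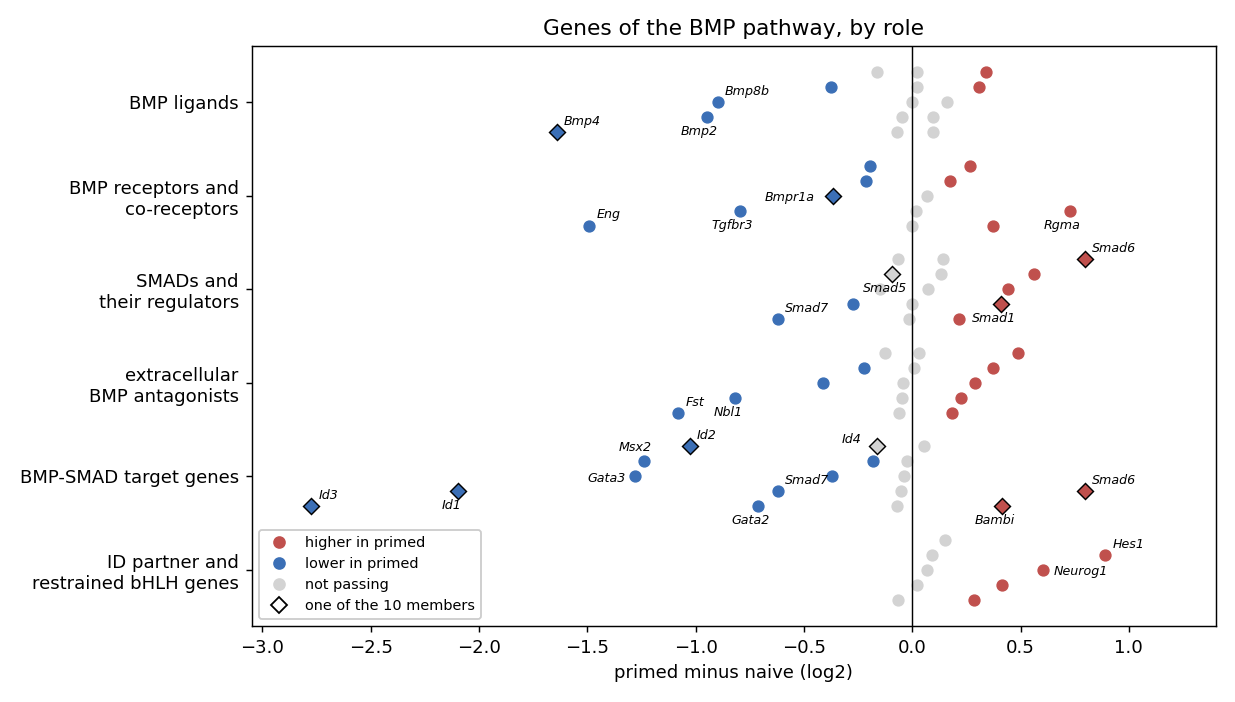
Difference of each measured gene in 6 lists of the BMP pathway, primed minus naive on the log2 scale (horizontal axis), 1 row per list and 1 point per gene. Diamonds are the 10 genes described here; the target list reaches furthest to the left, to -2.78 for Id3, and no gene of the ID partner list is called lower in primed cells.

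In the list of BMP-SMAD target genes, which holds the 4 Id genes, Smad6 and Bambi, 2 of 17 genes were higher and 9 lower in primed cells. The median difference was -0.18. Of the 11 targets outside the 10 genes, 0 were higher and 6 lower in primed cells, and 5 did not pass. Among all genes, 21.8% were higher and 22.7% lower. Gata3, for a transcription factor of trophoblast and surface ectoderm, was at 7.86, 7.79 and 7.85 on the primed arrays, against 9.06, 9.23 and 9.05 on the naive arrays (-1.28, adjusted p = 2.36e-08). Msx2, a homeobox gene with a well-known BMP response, was at 7.34, 7.45 and 7.37 on the primed arrays, against 8.78, 8.55 and 8.54 on the naive arrays (-1.24, adjusted p = 8.5e-08). Gata2 (-0.71) and Cdx2 (-0.37) were lower in primed cells, while Msx1 (-0.05), Dlx3 (0.06) and Hey1 (-0.04) did not pass. Smad6 and Bambi were the 2 targets of this list higher in primed cells.

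Trophoblast markers moved with these targets. All 7 measured were lower in primed cells, with a mean level over the list of 7.80 to 7.86 on primed and 8.74 to 8.80 on naive arrays. Of the 7, 2 (Gata3 and Cdx2) are in the target list too. Elf5 lay in background on all primed arrays and on 1 naive array. Its difference of -0.26 (limma adjusted p = 0.0096) therefore gives no reliable lower bound on the fold. Of 7 mesoderm markers, 1 was higher and 3 lower in primed cells, led by Eomes (-2.20), at mean levels of 7.46 to 7.50 on primed and 7.85 to 7.94 on naive arrays. Of 12 fibroblast markers, which feeder cells would bring, 2 were higher and 4 lower in primed cells. Their mean level was 7.36 to 7.42 on primed and 7.29 to 7.33 on naive arrays, and Postn, Prrx1, Lum and Fap lay in background on all 6. Dcn rose by 2.89 and Col1a1 differed by -0.76. Of 7 endoderm markers, 0 were higher and 1 lower, with mean levels of 7.34 to 7.39 on primed and 7.42 to 7.50 on naive arrays. The part of any of these cell types in the Id and Bmp4 values was not tested.

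The partners of ID proteins were read as well. E-protein genes, whose products ID proteins bind, were far above background in both groups. Tcf12 was at 11.46, 11.48 and 11.44 on the primed arrays, against 11.14, 11.16 and 11.22 on the naive arrays (0.29, adjusted p = 0.000641), while Tcf3 (0.09, adjusted p = 0.248) and Tcf4 (0.07, adjusted p = 0.438) did not pass. In the whole list of partners and restrained bHLH genes, 4 of 9 were higher and 0 lower in primed cells, with a median difference of 0.15. The share called in either direction is close to the 44.5% of all genes. Hes1, a Notch target that also dimerises with ID proteins, was at 10.28, 10.27 and 10.22 on the primed arrays, against 9.35, 9.40 and 9.35 on the naive arrays (0.89, adjusted p = 8.82e-08). The proneural genes Neurog1 (0.60) and Neurod1 (0.41) rose, and Neurog2 did not pass (0.02). Of 7 neuroectoderm markers, 5 were higher in primed cells, with mean levels of 9.19 to 9.30 on primed and 8.50 to 8.52 on naive arrays, and their part in this list was not tested.

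The genes that neighbour the Id genes went both ways. Around Id1 on chromosome 2, 6 of the 10 nearest genes above the median level (5 on each side in gene order of GRCm38.p6) were higher in primed cells and 1 was lower, with a median difference of 0.33. Around Id2 on chromosome 12 the counts were 6 and 1, with a median of 0.19. Around Id3 on chromosome 4, 1 was higher and 5 were lower, but the largest drop among them was -1.07, smaller than that of Id3. Around Id4 on chromosome 13, 3 were higher and 3 lower, with a median of 0.03. Around Bmp4 on chromosome 14, 3 were higher and 4 lower, and they ranged from -0.65 to 0.40. Among all genes, of any level, 21.8% were higher and 22.7% lower in primed cells. These shares are not matched to the neighbours, since a larger share was called among brighter genes.

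Profiles over the 6 arrays were compared by the root mean square distance between genes, each centred on its own mean, among genes above the median level. The nearest to Id1 were Plet1 (0.06), Tgm3 (0.07) and Anxa2 (0.08), all on the log2 scale. Those nearest to Id3 were Glrx (0.08), Ifitm1 (0.12) and Ifitm3 (0.14), and those nearest to Id2 were Klf8 (0.02), Capn2 (0.02) and Cyria (0.03). Diaph2 (0.01), Zfp322a (0.03) and Prr14l (0.03) were nearest to Id4. With 2 groups of 3 arrays, this likeness mostly measures an equal difference between the groups.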

How the data were processed

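Total RNA of 3 primed and 3 naive iPSC cultures was measured on Affymetrix mouse gene arrays. The deposited values are log2 values made by the authors with RMA in Partek 6.6, per the submitters' processing notes. The genome build and RMA's options were not given in the sources used here. RMA compresses differences of dim genes. Of 35556 probe sets, 21789 had 1 gene symbol in GEO's platform annotation, 1621 had several (not used) and 12146 are not named here; 21698 matched RefSeq (GRCm38.p6) by gene ID. The probe set with the highest mean was kept per gene, leaving 19938 genes. Background was set from 1190 olfactory and vomeronasal receptor genes.

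Groups from the cell type label were compared by linear models with moderated variance (lmFit and eBayes of limma 3.58.1, run in R 4.3.3), two-sided, with no covariates and no further normalization. The 10 genes were fixed by name; they, the lists and the motifs were chosen with earlier results of these data known, and lists are given as counts with no list test. In each of the 6 pathway lists the 4 genes with the largest difference are named by rule; other list genes and marker genes were named for their role after their values were seen. Some genes of the lists were not analysed here, and Hfe2 was matched as Hjv. In simulated arrays with the spread of these 19938 genes, 50 genes were changed at each size. Recovery was 18% for planted changes of 0.25, 88% for 0.5, 98% for 1 and 100% for 2, and 2 unchanged genes were called. In the data a far larger share was called (44.5%), which makes the adjustment less strict. The simulated rates therefore do not give the share of small changes missed here. Figures were drawn with Python 3.11.15 and matplotlib 3.10.9.

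Alternatives were quantile normalization, median centring, a filter on dim genes (under the 40th percentile), averaging probe sets, robust estimation with an intensity trend, weighting of arrays, a replicate block, a threshold of 0.01, leaving out each array, and (chosen after the data were seen) leaving out genes in background on all arrays.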

Additional observations from a re-analysis of the deposited data

How the results depend on the processing

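Over 15 alternatives, 145 of 150 values of the 10 genes kept their direction and their side of the threshold, and the other 5 were Id4 (4 alternatives) and Smad5 (1), both passing there as lower in primed cells. Id1 lay between -2.17 and -2.08, Id3 between -2.86 and -2.72, Bmp4 between -1.71 and -1.61 and Smad6 between 0.73 and 0.87. The 10 genes gave 3 higher each time and 5 to 7 lower. Of all genes called, 49% were higher in primed cells, against 35.2% after each array was centred on its median. Without each array in turn, 3926 to 4169 genes were higher and 4007 to 4455 lower, and receptor genes lower in primed cells numbered 3 to 4, where leaving out an array leaves fewer samples. Receptor genes lower in primed cells numbered 3 at a threshold of 0.01 and 3 with the replicate number as a block. After centring, 5 SMAD-list genes were lower and 3 antagonist genes higher. Antagonist genes higher in primed cells also numbered 3 without dim genes, where fewer genes were tested, and 3 at a threshold of 0.01. The cause of the other shifts was not tested.

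Same-numbered arrays did not deviate together (correlations of -0.11, 0.00 and -0.02), so the numbers are not taken to pair the samples. With the replicate block, 4172 genes were higher and 4344 lower, and the 10 genes again gave 3 and 5. Precision is limited by 3 arrays per group. Signal close to background, where RMA compresses differences, limits it further for Bmp2 and Id3 on the primed arrays. The same holds for Smad6 on the naive arrays and for Id4 on all arrays. Other named genes were as close, among them Eng, Msx2 and Cdx2 on the primed arrays and Neurog1 on the naive arrays.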
